A study of Neurospora crassa with 6 samples.

Results

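The acu genes of Neurospora crassa are named after mutants that cannot use acetate as a carbon source. All 6 genes whose name in the deposited expression table was acu-3, acu-5, acu-6, acu-8, acu-9 or acu-15 were taken, of 10559 genes in all. Each was matched by symbol to a locus tag of the NC12 reference gene table, and none of the 6 overlapped another gene there. That table also lists con-3 and pck-1 as synonyms of acu-6. Polyadenylated RNA came from hyphae of a single strain, labelled as carrying deletions of cry, vvd and wc-1, a label that the dark controls share. The 3 genes encode a cryptochrome and the blue-light photoreceptors VIVID and White Collar-1. Cultures spent 45 min in 2% glucose medium in darkness, under 1000 lux or under 5000 lux, with 2 libraries per condition, and the labels do not say whether the 2 came from separate cultures. The p-values therefore measure the spread between these libraries, which may be technical.

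Acetate enters metabolism as acetyl-CoA, which the glyoxylate cycle joins into larger organic acids that gluconeogenesis then turns into sugar. Isocitrate lyase and malate synthase are the enzymes that set the glyoxylate cycle apart from the tricarboxylic acid cycle, and in Neurospora they are found in microbodies called glyoxysomes. Phosphoenolpyruvate carboxykinase draws oxaloacetate out of the cycle as the first committed step of gluconeogenesis. Fungi grown on glucose keep these enzymes repressed and induce them on acetate.

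Levels are given in RPKM, reads scaled by gene length and by library depth, as the authors deposited them. Whole reads recovered from the steps between these values came to 16822340 to 22113315 per library on genes, and to 437 to 13652 reads for an acu gene in a library, where counting error alone is 0.856% to 4.78%. The markers fixed for hyphae, hex-1, so, chs-1 and rho-1, were all present, at a sum of 1430 to 1640 RPKM over the 6 libraries. The 6 conidiation markers con-6, con-8, con-10, con-13, eas and fl were also above 0 in every library. The genes labelled as deleted had reads in every library, wc-1 at 6.31 to 9.04 RPKM, vvd at 1.95 to 3.44 and cry at 1.59 to 2.56, where the median gene of a library had 7.49 to 8.24 RPKM. With no strain that carries them intact to compare with, these values neither bear out the labelled deletions nor show that they are absent.

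The 6 genes are described in 4 groups, set by the calls as well as by the order of the conditions. A gene is called lower or higher where limma gave an adjusted p under 0.05, with Benjamini-Hochberg adjustment over the 7841 genes that had at least 1 RPKM in 2 or more libraries, and all 6 acu genes were among these. acu-6 (NCU09873), the gene of phosphoenolpyruvate carboxykinase, was lower under both lights than in darkness. acu-3 (NCU04230), the gene of isocitrate lyase, and acu-9 (NCU10007), the gene of malate synthase, were lower at 1000 lux. Neither passed the test against darkness at 5000 lux. acu-15 (NCU06656), the gene of the transcriptional activator of acetate use, was lowest at 1000 lux and highest at 5000 lux, where it did not pass the test against darkness. acu-5 (NCU06836), the gene of acetyl-CoA synthetase, and acu-8 (NCU09770), the gene of acetyl-CoA hydrolase, passed the test in no comparison. From darkness through 5000 lux to 1000 lux, acu-3, acu-5, acu-6 and acu-9 all went from highest to lowest with no overlap.

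In darkness acu-5 stood far above the rest. It had 172.2 and 165.2 RPKM, above 96.6% and 96.5% of all genes in the 2 dark libraries. acu-6 (37.0 and 37.9 RPKM), acu-8 (37.3 and 36.0 RPKM), acu-9 (34.6 and 38.2 RPKM) and acu-3 (34.8 and 33.1 RPKM) followed within a narrow band. The libraries of acu-6, acu-8 and acu-9 overlapped one another in darkness, so their order there is not resolved, and acu-3 overlapped acu-9 only. acu-15 was lowest of the 6, at 20.5 and 17.5 RPKM. At 1000 lux acu-6 took the lowest place, at 7.82 and 9.25 RPKM, below acu-15 and acu-3, whose libraries overlapped each other. At 5000 lux acu-6 was again the lowest of the 6 in both libraries, at 14.0 and 11.3 RPKM.

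**Figure D1:**
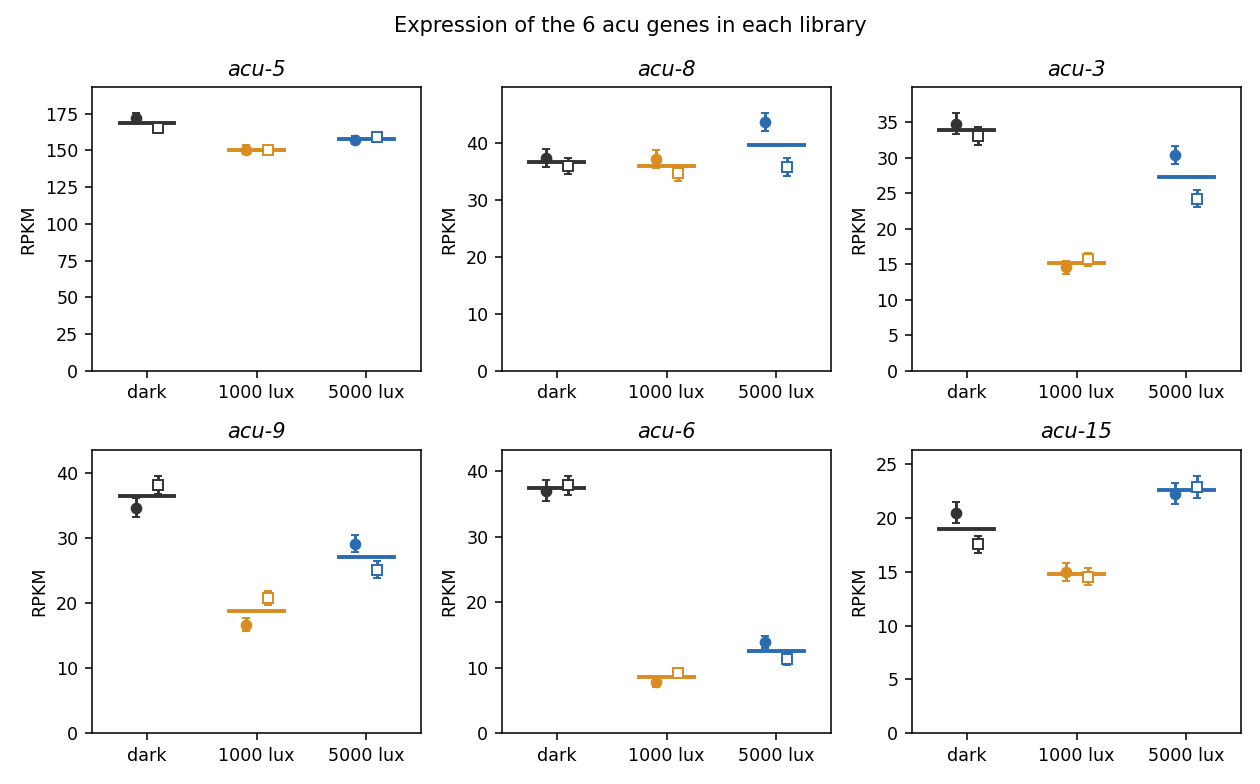
Expression of the 6 acu genes in RPKM (y axis, from 0) in darkness, at 1000 lux and at 5000 lux; filled circles are replicate 1, open squares replicate 2, error bars the exact 95% Poisson interval of the reads and horizontal lines the group means. acu-6 drops from about 37.4 RPKM in darkness to 8.53 and 12.6 under the lights, acu-3, acu-9 and acu-15 are lowest at 1000 lux, and acu-5 and acu-8 stay within a narrow range.

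The supply of acetyl-CoA comes first in the pathway. acu-5, whose product activates acetate to acetyl-CoA, had 172.2 and 165.2 RPKM in the dark libraries, against 150.4 and 150.2 under 1000 lux and 156.8 and 159.0 under 5000 lux. Both lights lay below darkness with no overlap, but the gap was small. Against darkness the log2 fold change came to -0.17 at 1000 lux and -0.09 at 5000 lux (SE 0.07 each), at limma adjusted p = 0.1642 for the first and 0.487 for the second, on the scale log2(RPKM + 1) used throughout. The 95% confidence intervals, -0.33 to 0.00 and -0.26 to 0.07, bound the size of any fall. acu-8, whose product splits acetyl-CoA, had 37.3 and 36.0 RPKM in the dark libraries, against 37.1 and 34.6 under 1000 lux and 43.6 and 35.7 under 5000 lux. Its libraries overlapped in every pair of conditions. The intervals of its log2 fold change ran from -0.27 to 0.21 at 1000 lux and from -0.13 to 0.34 at 5000 lux against dark (limma adjusted p = 0.8751 and 0.5898).

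The genes of the glyoxylate cycle enzymes had the same order of conditions. acu-3 had 34.8 and 33.1 RPKM in the dark libraries, against 14.5 and 15.7 under 1000 lux and 30.4 and 24.2 under 5000 lux. The 3 conditions did not overlap, with darkness highest and 1000 lux lowest. At 1000 lux its mean was 44.5% of the dark mean, a log2 fold change of -1.12 (SE 0.12, limma adjusted p = 0.0004525), which ranked 25 from the lowest of 7841 genes tested. Reads from bulk hyphae do not tell fewer cells that express a gene from less RNA per cell.

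acu-9 had 34.6 and 38.2 RPKM in the dark libraries, against 16.7 and 20.8 under 1000 lux and 29.1 and 25.2 under 5000 lux, again with no overlap and in the same order. Its mean at 1000 lux was 51.5% of that in darkness, with a log2 fold change of -0.93 (SE 0.12, limma adjusted p = 0.001302) and rank 55 from the lowest. Leaving out any 1 of the 6 libraries left acu-3 and acu-9 called at 1000 lux against dark. Within a library the ratio of acu-3 to acu-9 was 1.00 and 0.868 in the dark libraries, 0.871 and 0.756 under 1000 lux and 1.05 and 0.963 under 5000 lux. The dark ratios overlapped those of each light, while both ratios at 5000 lux lay above both at 1000 lux.

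At 5000 lux neither glyoxylate gene passed the test against darkness. acu-3 had 80.5% of its dark mean (log2 fold change -0.31, 95% interval -0.57 to -0.05, limma adjusted p = 0.1224) and acu-9 had 74.5% (-0.41, 95% interval -0.68 to -0.14, limma adjusted p = 0.06033). The acu-9 value passed with median-of-ratios scaling, quantile normalization, voom on the recovered reads, only the groups compared, and without either 1000 lux library, at limma adjusted p from 0.02256, and reached 0.3221 at the other end of the alternatives. The 5000 lux replicates differed by more than counting error. acu-3 had a Poisson interval of 29.2 to 31.7 RPKM in replicate 1 and of 23.0 to 25.5 in replicate 2, and acu-6, acu-8 and acu-9 were higher in replicate 1 as well, with intervals that did not overlap.

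The gluconeogenic step showed the largest difference among the 6 genes. acu-6 had 37.0 and 37.9 RPKM in the dark libraries, against 7.82 and 9.25 under 1000 lux and 14.0 and 11.3 under 5000 lux. The 3 conditions did not overlap, and both lights lay far below darkness. Its mean was 22.8% of the dark mean at 1000 lux and 33.8% at 5000 lux. The log2 fold changes were -2.02 and -1.50 (SE 0.12 each), at limma adjusted p = 4.637e-05 for 1000 lux and 0.0005555 for 5000 lux, ranks 3 and 5 from the lowest of all 7841 genes tested. Leaving out any single library left both called, with log2 fold changes of -2.12 to -1.91 and of -1.64 to -1.36. These levels rest on 2043 and 2621 reads in the dark libraries and on as few as 437 in a 1000 lux library.

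The ratio of acu-6 to other members within a library does not depend on how libraries are scaled. acu-6 to acu-3 was 1.06 and 1.14 in the dark libraries, 0.538 and 0.589 under 1000 lux and 0.459 and 0.467 under 5000 lux. The ratio was thus lowest at 5000 lux, where acu-3 lay nearer to its dark level than acu-6 did. acu-6 to acu-8 was 0.993 and 1.05 in the dark libraries, 0.211 and 0.267 under 1000 lux and 0.320 and 0.317 under 5000 lux. These ratios show that the genes changed unequally, and they do not show which of a pair stayed constant.

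**Figure D2:**
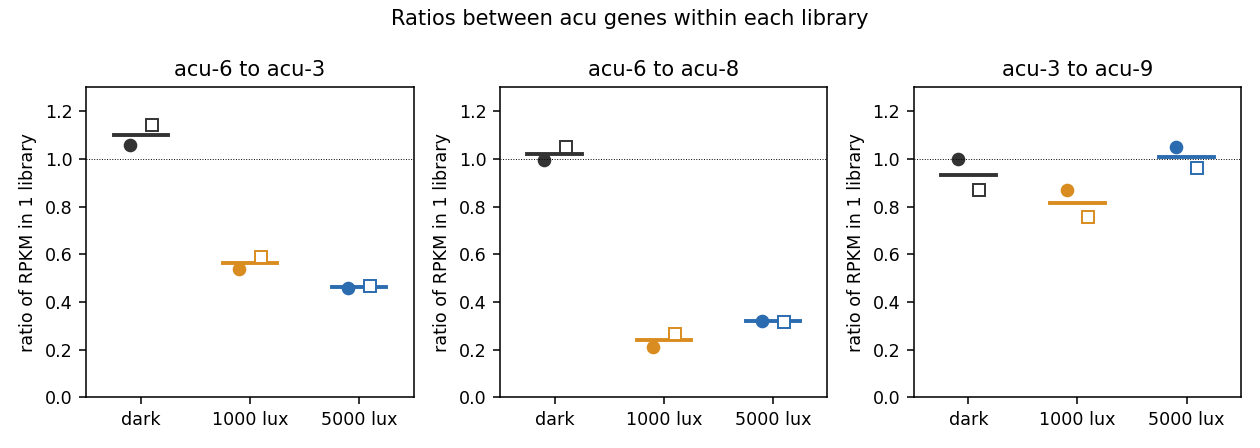
Ratio of the RPKM of 2 acu genes within the same library (y axis, from 0) in darkness, at 1000 lux and at 5000 lux; filled circles are replicate 1, open squares replicate 2, lines the group means and the dotted line a ratio of 1. In darkness the ratios of acu-6 to acu-3 and to acu-8 were 0.993 to 1.14, with acu-6 above acu-3 in both libraries. Under light these ratios were 0.211 to 0.589, while acu-3 to acu-9 ran from 0.756 to 1.05 over all libraries.

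The regulator spanned a smaller range than acu-3, acu-6 and acu-9. acu-15, whose product is the counterpart of the acetate activator FacB of Aspergillus nidulans, had 20.5 and 17.5 RPKM in the dark libraries, against 14.99 and 14.5 under 1000 lux and 22.2 and 22.8 under 5000 lux. The 3 conditions did not overlap, and here 5000 lux was the highest. At 1000 lux it was lower than in darkness with a log2 fold change of -0.34 (SE 0.10, limma adjusted p = 0.04674). Only the fit that left out dark replicate 2 retained this call; the fits without any other library missed the threshold, with limma adjusted p up to 0.1724. It was also lost with a pseudocount of 5 RPKM, with no filter, with no variance trend and with only the groups compared. At 5000 lux against dark its log2 fold change was 0.24 (95% interval 0.01 to 0.47, limma adjusted p = 0.1781), the opposite sign to acu-3, acu-6 and acu-9, and it did not pass.

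Counted together, 4 of the 6 acu genes fell at 1000 lux relative to darkness and 0 rose, where 7.82% of the 7841 genes tested were lower and 9.13% higher. By unadjusted p and by voom the counts were also 4 lower and 0 higher. Without a library other than dark replicate 2 the lower count was 3. At 5000 lux against dark 1 of 6 was lower, acu-6, where 2.92% of all genes tested were lower, and 0 were higher, where the share was 6.7%; an unadjusted p under 0.05 was reached by 1 higher gene and 3 lower, and voom called 2 lower and 0 higher. Both comparisons use the same 2 dark libraries. The 6 genes were chosen with earlier results of these data known, so the shares over all genes are a background and not a test. The median log2 fold change of the 6 was -0.634 at 1000 lux and -0.203 at 5000 lux, against 0.001 and 0.023 over all genes tested. Between conditions the libraries did not overlap, on the lower side, for 5 acu genes at 1000 lux and 4 at 5000 lux against dark, where 28.5% and 23.1% of all genes tested did the same.

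**Figure D3:**
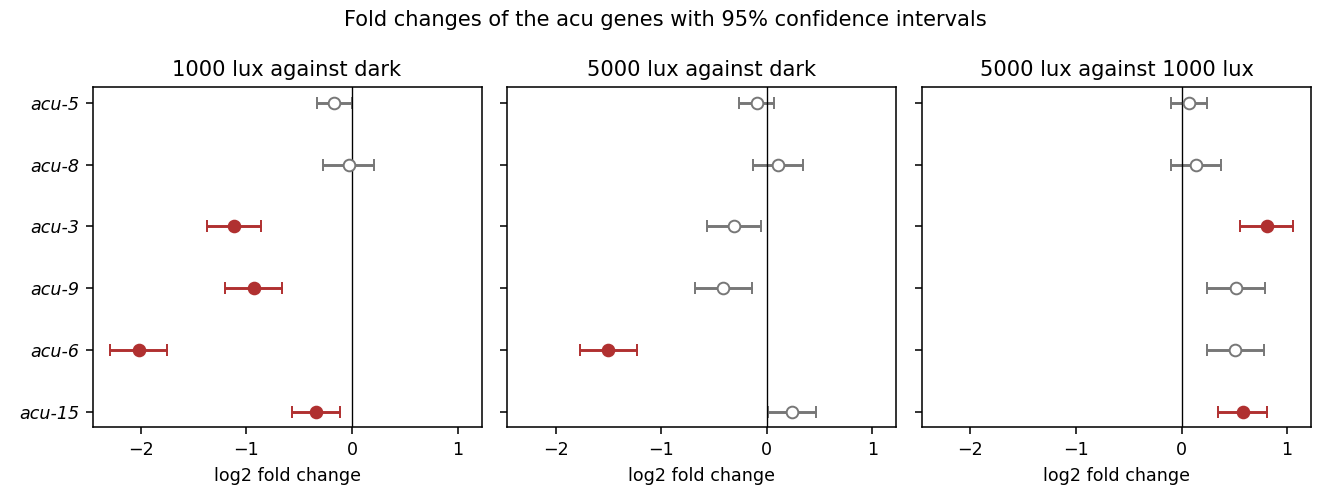
Log2 fold change of each acu gene on the scale log2(RPKM + 1) (x axis) in the 3 comparisons, with 95% confidence intervals from limma; filled red points passed an adjusted p under 0.05 over all 7841 genes tested and open grey points did not. acu-6 lies at -2.02 and -1.50 against darkness, and acu-3 and acu-15 lie at 0.81 and 0.58 at 5000 against 1000 lux.

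The difference between the lights was tested directly, with the 1000 lux libraries that also entered the first comparison. acu-3 was higher at 5000 than at 1000 lux by 0.81 on the log2 scale (SE 0.12, limma adjusted p = 0.008581), and acu-15 by 0.58 (SE 0.10, limma adjusted p = 0.01707). These were 2 of 6 genes higher and 0 lower, where 1.66% of all genes tested were higher and 1.36% lower, and voom and the unadjusted p each gave 4 higher and 0 lower. acu-6 and acu-9 also had no overlap between the lights, with log2 fold changes of 0.51 and 0.52 (SE 0.12 each), and both missed the threshold at a limma adjusted p = 0.05424. Both passed with a mean of at least 5 RPKM, with voom and without either dark library, acu-6 also with a pseudocount of 0.1 RPKM and acu-9 also with only the groups compared, and over all alternatives the adjusted p reached 0.4052 for acu-6 and 0.3892 for acu-9. acu-5 and acu-8 differed by 0.07 (95% interval -0.10 to 0.24) and 0.14 (95% interval -0.10 to 0.37), at limma adjusted p = 0.7211 and 0.6132. In all, 5 of the 6 genes were higher in both 5000 lux libraries than in both 1000 lux libraries, which held for 29.4% of all genes tested. Leaving out replicate 1 of either light ended the acu-3 call, at log2 fold changes down to 0.65, and leaving out any of the 4 light libraries ended the acu-15 call, at 0.56 to 0.60. Both calls were lost with no variance trend, and that of acu-15 with no filter.

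The summed level of the 6 conidiation markers was lowest at 1000 lux, as were acu-3, acu-5, acu-6, acu-9 and acu-15. At 5000 lux the sum overlapped that in darkness, whereas acu-15 lay above darkness and the other genes named here below it. The sum was 204 to 247 RPKM in darkness, 113 to 119 at 1000 lux and 195 to 267 at 5000 lux. The hydrophobin gene eas made up 70.6 to 231 RPKM of it. con-8 and con-10 went the other way, with their highest levels at 1000 lux, 29.5 and 29.6 RPKM for con-8 and 3.18 and 2.80 RPKM for con-10. con-6 and con-13 stayed under 1 RPKM in every library. The hyphal markers summed to 1560 to 1620, 1560 to 1640 and 1430 to 1450 RPKM in the same order. Of these sums hex-1 alone made up 1040 to 1220 RPKM. The part of these markers in the acu results was not tested.

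The lists of genes around the acu enzymes in carbon metabolism are read against the shares over all 7841 genes tested, where calls higher and calls lower made up 9.13% and 7.82% for 1000 lux against dark, 6.7% and 2.92% for 5000 lux against dark, and 1.66% and 1.36% between the lights. Of 22 genes of the tricarboxylic acid cycle and acetyl-CoA supply, against darkness 1 rose and 1 fell at 1000 lux, 1 rose and 0 fell at 5000 lux, and 0 passed between the lights. Each single called gene is 4.55% of the list, below the 9.13% and 7.82% that all genes gave at 1000 lux and the 6.7% of higher calls at 5000 lux, so these counts do not set the list apart. An unadjusted p under 0.05 was reached by 2 higher and 4 lower genes at 1000 lux, 5 higher and 2 lower at 5000 lux and 1 higher between the lights, and voom called 1 higher and 1 lower, then 2 higher and 0 lower, then 0. The median log2 fold changes were 0.021, 0.081 and 0.061, near the 0.001, 0.023 and 0.03 of all genes tested. tca-3 (NCU02366), the aconitase gene, had 91.1 and 111 RPKM in the dark libraries, against 167 and 154 under 1000 lux and 149 and 129 under 5000 lux. It was thus higher under both lights, at 0.67 for 1000 lux and 0.46 for 5000 lux (SE 0.11 each, limma adjusted p = 0.003582, then 0.02871). At 1000 lux this was opposite to the glyoxylate genes, which did not pass the test against darkness at 5000 lux. The 5000 lux call of tca-3 did not survive leaving out dark replicate 1 or either 5000 lux library. tca-15 (NCU04899), a malate dehydrogenase gene, was lower at 1000 lux at -0.39 (limma adjusted p = 0.02879), a call lost without dark replicate 2 or 1000 lux replicate 1.

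Of 9 genes of glycolysis and gluconeogenesis, 0 passed limma or voom in any comparison and 0 had an unadjusted p under 0.05, with log2 fold changes between -0.18 and 0.28 over the 3 comparisons. With 9 genes, a count of 0 does not stand apart from the 9.13% (higher) and 7.82% (lower) over the whole table at 1000 lux, nor from the smaller shares in the other comparisons. Among them fbp-1 (NCU04797), the gene of fructose-1,6-bisphosphatase and so of a later gluconeogenic step than acu-6, had 6.33 and 6.50 RPKM in the dark libraries, against 7.43 and 8.59 under 1000 lux and 8.15 and 5.93 under 5000 lux. Its log2 fold change of 0.28 at 1000 lux against dark (95% interval -0.05 to 0.61, limma adjusted p = 0.2317) had the sign opposite to acu-6. The pyruvate carboxylase gene suc (NCU02505) is not among these 9 and was counted in the list of the tricarboxylic acid cycle. Its product makes oxaloacetate from pyruvate, and the enzyme of acu-6 consumes oxaloacetate. suc had 156 and 158 RPKM in the dark libraries, 130 and 140 under 1000 lux and 163 in each 5000 lux library. It was lowest at 1000 lux, with values that did not pass against either condition (limma adjusted p = 0.09199 and 0.1081).

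Of 21 peroxisome genes, which include hex-1, the Woronin body gene, and the pex genes of peroxisome assembly, 0 passed limma or voom in any of the 3 comparisons, 1 had an unadjusted p under 0.05 (hex-1, between the lights), and their log2 fold changes ran from -0.22 to 0.25. The whole table gave 9.13% (higher) and 7.82% (lower) for 1000 lux against dark, 6.7% and 2.92% for 5000 lux against dark, and 1.66% and 1.36% between the lights. The peroxisome medians were -0.013, -0.041 and -0.009, against 0.001, 0.023 and 0.03 for all genes tested and -0.634, -0.203 and 0.515 for the acu genes. Of 4 fatty acid breakdown genes 1 was higher and 0 lower under each light than in darkness, beside shares of higher calls over all genes of 9.13% for 1000 lux and 6.7% for 5000 lux, and the medians of the 4 were 0.099 and 0.131. acd-1 (NCU02287) was higher under both lights, going from 5.26 and 6.86 RPKM in darkness to 12.9 and 10.6 at 1000 lux and 13.3 and 10.2 at 5000 lux. Its log2 fold changes were 0.86 and 0.85 (SE 0.16 each), at limma adjusted p = 0.006202 for 1000 lux and 0.01042 for 5000 lux, calls lost without 1000 lux replicate 1 and without 5000 lux replicate 1. acd-2 (NCU08924), acd-3 (NCU01181) and fox-2 (NCU08828) had log2 fold changes from -0.10 to 0.17 against dark, and none of the 3 passed.

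**Figure D4:**
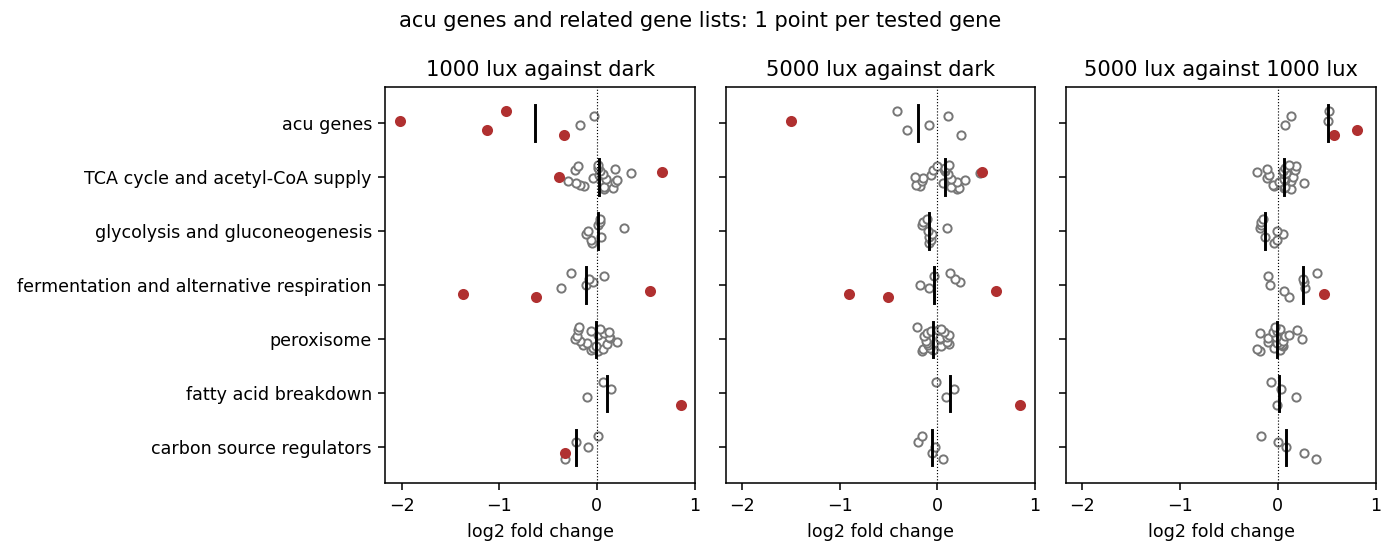
Log2 fold changes (x axis) of the acu genes and of the tested genes of 6 related lists in the 3 comparisons, 1 point per gene; filled red points passed a limma adjusted p under 0.05, open points did not, and black bars are medians. The acu genes reach -2.02 at 1000 lux against dark, while the 21 peroxisome and 9 glycolysis genes stay between -0.22 and 0.28 in all comparisons.

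Of 10 genes of fermentation and alternative respiration, 9 were tested and aod-3 (NCU04874), at 0.262 to 0.769 RPKM, lay under the minimum. In this list 1 was higher and 2 were lower under each light than in darkness, beside shares over all genes of 9.13% (higher) and 7.82% (lower) for 1000 lux and of 6.7% and 2.92% for 5000 lux. The medians of the 9 were -0.105 and -0.033. By voom 3 were lower at 1000 lux and 2 at 5000 lux, with 1 higher in each. The gene that voom alone called lower at 1000 lux was aod-5 (NCU03938), at -0.37 (limma adjusted p = 0.09066). It had 8.85 and 8.22 RPKM in the dark libraries, against 5.56 and 7.31 under 1000 lux. The genes that limma called lower were aod-1 (NCU07953), the alternative oxidase gene, at -1.37 and -0.90, and adh-1 (NCU01754), an alcohol dehydrogenase gene that overlaps NCU01753, at -0.62 and -0.51, the last lost without 5000 lux replicate 2. The higher gene was aod-2 (NCU03352), which encodes a transcription factor that acts on aod-1, at 0.54 and 0.60. Its calls were lost without either dark library, without 1000 lux replicate 1 and without either 5000 lux library, each in the comparison concerned. Between the lights aod-1 was higher at 5000 lux (0.47, limma adjusted p = 0.03691), where 1.66% of all genes tested were higher, and this call was lost without any of the 4 light libraries. In that comparison 4 genes of the list, aod-1 among them, were higher and 0 lower at an unadjusted p under 0.05. By voom 1 was higher and 0 were lower. The list median there was 0.262, against 0.03 over all genes tested.

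Of 5 carbon source regulators 1 was lower and 0 higher at 1000 lux against dark, where 7.82% of all genes tested were lower and 9.13% higher, and the median of the 5 was -0.207. In this list limma called 0 at 5000 lux or between the lights, where 0 and 2 had an unadjusted p under 0.05 and voom called 0 and 1. cre-1 (NCU08807), the carbon catabolite repressor, had 78.2 and 70.5 RPKM in the dark libraries, against 54.6 and 63.5 under 1000 lux and 74.3 and 68.2 under 5000 lux. In the 1000 lux libraries 4 of the acu genes were lower as well, and a link between them and cre-1 RNA was not tested. cre-1 itself was called lower there than in darkness at -0.33 (SE 0.10, limma adjusted p = 0.04982). The call was lost without dark replicate 1, 1000 lux replicate 1 or either 5000 lux library, and with a pseudocount of 5 RPKM, no filter, no variance trend, only the groups compared or the replicate number as a block. col-26 (NCU07788), a regulator of glucose sensing, had 8.95 ± 0.651, 6.90 ± 0.299 and 9.35 ± 0.407 RPKM (mean ± SD, n = 2) in darkness, at 1000 lux and at 5000 lux, and did not pass (limma adjusted p = 0.0671 at 1000 lux against dark), though voom called it lower there. rco-1 (NCU06205) and rcm-1 (NCU06842), genes of the co-repressor pair, and the kinase gene prk-10 (NCU04566) did not pass in any comparison, with log2 fold changes between -0.21 and 0.08.

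The genes whose profile lay nearest to an acu gene were found by the Euclidean distance between log2(RPKM + 1) values over the 6 libraries, each gene centred on its mean, among 1076 tested genes with a symbol that are not acu genes. Nearest to acu-6 was aod-1, at a distance of 0.753, followed by lys-3 (NCU03010), his-6 (NCU07156, overlapping NCU07155), arg-5 (NCU05410) and arg-10 (NCU08162) at 1.14 to 1.24. aod-1 had 25.8 and 23.7 RPKM in the dark libraries, against 8.69 and 9.23 under 1000 lux and 13.2 and 12.5 under 5000 lux, the same order as acu-6 with a smaller span. acu-3 and acu-9 lay at 1.25 and 1.26 from acu-6, and acu-8, acu-15 and acu-5 at 2.12, 2.00 and 1.95. A gene with no change at all would lie at 2.11, so distances near that value do not rank likeness to acu-6.

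Nearest to acu-3 were his-6 at 0.16 and arg-10 at 0.165, then aro-1 (NCU01632), pdx-1 (NCU06550, overlapping NCU06551) and aro-8 (NCU02785) at 0.361 to 0.392. By symbol these are genes of histidine, arginine and aromatic amino acid synthesis and of vitamin B6 synthesis. his-6 had 60.9 and 64.9 RPKM in the dark libraries, against 27.8 and 28.7 under 1000 lux and 54.6 and 41.4 under 5000 lux, which repeats the lower second replicate of acu-3 at 5000 lux. acu-9, at 0.365 from acu-3, would stand 4 in that order, behind 3 of these genes. acu-5, which varied only 1.15-fold over the 6 libraries, lay nearest to sec5 (NCU07698) at 0.0375, then to rpn-9 (NCU02374, overlapping NCU02375), hat-6 (NCU04782), asf-1 (NCU09436) and gna-1 (NCU06493) at 0.073 to 0.0867. For a gene with so small a span, a short distance says mainly that both varied little. The highest level over the lowest was 4.84-fold for acu-6, 2.39-fold for acu-3, 2.28-fold for acu-9, 1.57-fold for acu-15 and 1.26-fold for acu-8. These distances share the 6 libraries and their depth, and are descriptions without a test.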

How the data were processed

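Expression was measured by sequencing of polyadenylated RNA in 6 libraries. Per the labels, each library is a column of RPKM values in a single file made by the authors; CASAVA 1.8 and HISAT are named, with no roles, per the submitters' processing notes. The sources used here name no build, annotation, counting tool or strand setting. Locus tags and overlaps came from the NC12 gene table, to which 10526 of 10559 genes were matched.

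Reads were recovered as the gene length that gives whole reads in all libraries, to a tolerance of 0.005 reads and a relative 3e-07, which succeeded for 9772 genes of 9773 above 0; for 600 genes, none of them an acu gene, more than 1 length or none lay within 50% to 100% of the reference span, and the smallest was taken. The 7841 genes that reached 1 RPKM in 2 or more libraries entered limma 3.58.1 (R 4.3.3) as log2(RPKM + 1), with a variance trend, all 3 groups fitted together (3 residual and 6.87 prior degrees of freedom) and Benjamini-Hochberg adjustment over all genes tested at 0.05. The steps were tested on simulated data. Tables were handled with pandas 2.3.3 and figures drawn with matplotlib 3.10.9 under Python 3.11.15.

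The 6 genes and the 6 lists were chosen with earlier results of these data known. Named genes are the acu genes, the called genes of each list (up to 4 per comparison by adjusted p), all genes of lists of 6 or fewer, and the 5 nearest profiles of acu-3, acu-5 and acu-6. fbp-1, suc, aod-3, aod-5, tca-14 and the separate values of con-8 and con-10 were added after their values were seen. Replicate numbers 1 and 2 recur in each group, but the labels do not say that a number marks a shared culture. Alternatives were other pseudocounts (0.1 and 5 RPKM), filters, scalings and variance models, only the groups compared, a replicate block, voom on the recovered reads, and leaving out each library, where a group left with 1 library takes its variance from the other groups.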

Additional observations from a re-analysis of the deposited data

Results flagged for a closer look

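For acu-3 and for acu-15 the effect of 5000 lux differed from that of 1000 lux by a direct test, the comparison of 5000 with 1000 lux. The log2 difference was 0.81 for acu-3 (limma adjusted p = 0.008581) and 0.58 for acu-15 (limma adjusted p = 0.01707). Both 5000 lux libraries lay above both 1000 lux libraries for each gene, which held for 29.4% of all genes tested. Both calls were lost with no variance trend. The acu-3 call was also lost without replicate 1 of either light, and the acu-15 call without any of the light libraries.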

How the results depend on the processing

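Over 11 other settings, the acu-6, acu-3 and acu-9 calls at 1000 lux and the acu-6 call at 5000 lux against dark were kept in all, as they were without each library. Of 306 recomputed acu fold changes, 272 stayed on their side of the threshold, 18 lost a call, 16 gained one and 0 reversed a called direction. For 5000 lux against dark the count of lower acu genes rose from 1 to 2 with median-of-ratios scaling, quantile normalization, voom and only the groups compared, and was 1 to 2 without each library. Between the lights the higher count went from 2 to 4 with a mean of at least 5 RPKM and with voom, to 1 without a filter and to 0 without a variance trend, and was 0 to 4 without each library. The calls of tca-15 at 1000 lux, tca-3 at 5000 lux, aod-2 at both lights and aod-1 between the lights were lost without a filter and without a variance trend. The causes were not tested. Over all genes, the calls fell from 754 to 463 without a filter and 479 without a trend at 5000 lux against dark, and from 237 to 89 and 42 between the lights. Without each library they were 423 to 1141 (lowest without 1000 lux replicate 1, and 885 without 1000 lux replicate 2; main 1329), 129 to 680 (129 and 249 without 5000 lux replicate 1 and 2) and 19 to 356 (19, 30, 44 and 127 without 5000 lux replicate 1, 1000 lux replicate 1, 1000 lux replicate 2 and 5000 lux replicate 2, and 356 without dark replicate 2). At 5000 lux against dark 69.6% of calls were higher, and 58.6% and 57.2% with median-of-ratios scaling and quantile normalization; between the lights the shares were 54.9%, 47.9% and 51.4%, and 35.7% without a variance trend, 10.0% and 38.6% without 1000 lux replicate 1 and 2, and 5.26% without 5000 lux replicate 1. With the replicate block the acu counts remained 4, 1 and 2, and all genes called were 1343, 794 and 238. The replicate differences of pairs of groups correlated at 0.0282, -0.0872 and 0.0515 over genes. Such small correlations show no large shift common to a replicate number, and they cannot tell whether a number marks a shared culture. At 437 reads or more per library, counting error in an acu gene is under the differences called here; 2 libraries per condition limit the precision.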

Other observations

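In the NC12 gene table tca-14 (NCU10008) is the neighbour of acu-9. tca-14 had 133 and 158 RPKM in the dark libraries, against 128 and 154 under 1000 lux and 130 and 131 under 5000 lux, against a change of acu-9 from 34.6 and 38.2 to 16.7 and 20.8 RPKM at 1000 lux. The tca-14 libraries overlapped between darkness and 1000 lux (log2 fold change -0.04, 95% interval -0.29 to 0.20, limma adjusted p = 0.8252), and the difference between the 2 genes was not tested. The 6 acu genes together summed to 336.4 and 327.8 RPKM in the dark libraries, against 241.5 and 245.1 under 1000 lux and 296.1 and 278.3 under 5000 lux, a sum that acu-5 dominates.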
